A study of Mus musculus with 12 samples.

Results

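The mitochondrial genome encodes 2 ribosomal RNAs, mt-Rnr1 (ENSMUSG00000064337.1) and mt-Rnr2 (ENSMUSG00000064339.1), and these are 2 of the 48526 gene rows counted in every library of the series. They were chosen by their recovery with antibodies to double-stranded RNA, that is by values of pulldown against input of the same animal and relative to the protein-coding mitochondrial genes. Those comparisons, and DKO against control within a pulldown, are therefore given as descriptions with no test. The 12 libraries came from the intestinal epithelium of 4 female mice aged 3 months. DKO mice were induced to delete Kat2a and Kat2b, which encode lysine acetyltransferases, by 4 daily intraperitoneal injections of tamoxifen at 100 mg/kg, and control mice were injected with the ethanol and corn oil vehicle without tamoxifen. Genotype and tamoxifen exposure cannot be told apart, and the driver of the recombinase is not given in the sources used here. Epithelium was released with EDTA 2 days after the last injection. The sample titles call it whole-intestine epithelium, and the protocol places it in the proximal part of the small intestine. Each animal gave an input library and a pulldown library with each of the antibodies J2 and K1, so that control and DKO each have 2 libraries of each of these 3 kinds. P-values here measure the spread between 2 animals per genotype, except where a fit leaves out an animal and a lone one remains in that genotype.

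mt-Rnr1 is the RNA of the small subunit of the mitochondrial ribosome and mt-Rnr2 that of the large subunit. Both are cut, together with the transfer RNAs that lie between and beside them, from a long transcript of the heavy strand, and their bases are modified before the subunits assemble. Transcription of the opposite strand gives complementary RNA, which is normally degraded by the mitochondrial degradosome, and double-stranded RNA that escapes from mitochondria is a known ligand of the cytosolic sensor encoded by Ifih1.

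In the GRCm38 annotation (GENCODE M21) mt-Rnr1 is a single exon of 955 bases at chrM:70-1024 on the plus strand, and mt-Rnr2 is a single exon of 1582 bases at chrM:1094-2675 on the same strand. The 69 bases of the valine transfer RNA mt-Tv separate them. The junction is shown because it places both members on 1 precursor. Capitals mark the last 30 bases of mt-Rnr1 and the first 30 of mt-Rnr2, and lower case marks mt-Tv (chrM:995-1123, plus strand, 5′ to 3′).
junction: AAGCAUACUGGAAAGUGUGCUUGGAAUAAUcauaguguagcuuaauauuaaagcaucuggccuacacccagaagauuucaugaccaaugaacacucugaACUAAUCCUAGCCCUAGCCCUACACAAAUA

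The longest helix that RNAfold predicted within each member is shown as a feature of its predicted structure. Whether J2 or K1 binds helices of this length was not tested. Capitals mark the paired arms, of 10 bp in mt-Rnr1 (chrM:994-1017) and 12 bp in mt-Rnr2 (chrM:1476-1520), both on the plus strand.
mt-Rnr1: UAAGCAUACUggaaAGUGUGCUUG
mt-Rnr2: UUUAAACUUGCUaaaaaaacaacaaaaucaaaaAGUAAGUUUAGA
The mt-Rnr1 hairpin lies near the 3′ end, where the methyltransferase encoded by Tfb1m is known to modify the loop. Predicted structure did not set the members outside the range of the 13 protein-coding mitochondrial genes. The folding energy per base was -0.194 kcal/mol for mt-Rnr1 and -0.206 for mt-Rnr2, against a median of -0.145 over the 13 genes and a lowest value of -0.213 for mt-Co1. Paired bases made up 54.2% of mt-Rnr1 and 56.1% of mt-Rnr2, with a median of 41.4% and a highest value of 69.4%, for mt-Nd6, among the 13 genes. The longest helix within the 13 genes was also 12 bp, in mt-Co1. These are predictions for single molecules, and pairing with an RNA from the opposite strand is not part of them.

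The counts assigned to genes ranged from 10307281 to 11474107 per input library, from 13308021 to 16139531 per control pulldown and from 2220291 to 5826361 per DKO pulldown. Reads aligned to several places made up 5.54% to 8.05% of the listed reads in the input and control pulldown libraries, 15.8% and 29.5% in DKO J2, and 25.9% and 46.7% in DKO K1. All 8 epithelial markers had counts in every library, with a summed level of 4330 to 9619 CPM (counts scaled to a per-million library total). Of 8 leukocyte markers, 0 to 2 had no count in a library, and the sum was 34.3 to 94.8 CPM. The 8 markers of stroma, endothelium and muscle, of which 0 to 2 had no count in a library, summed to 2.52 to 7.32 CPM in input, 3.41 to 37.5 in control pulldowns and 42.7 to 155 in DKO pulldowns. Gm26917 took 0.279% to 0.820% of the gene counts in control pulldowns and 6.74% to 11.6% in DKO pulldowns. Nuclear genes of type rRNA took 3.39e-04% and 2.63e-04% in control J2 against 9.95e-04% and 5.76e-03% in DKO J2. With K1 they took 0.00162% and 0.00434% in control against 0.0191% and 0.0464% in DKO. Depth, reads aligned to several places, the stromal markers and these shares thus moved with genotype in the pulldowns, as the members did. The part of these reads, markers and shares in the members' values was not tested. Values at equal depth are given beside the result. In input, edgeR's quasi-likelihood test gave lower Kat2a (log2 fold change -0.88, adjusted p = 0.0205) and Kat2b (-1.51, adjusted p = 6.31e-04) in DKO. Transcripts of both remained: DKO input held 84 and 148 counts of Kat2a against 222 and 228 in control, and 118 and 114 of Kat2b against 359 and 343.

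Both ribosomal RNAs had few counts in input, more in control pulldowns and the most in DKO pulldowns, where mt-Rnr2 was among the most abundant RNAs. In control input mt-Rnr1 had 41 and 129 counts and in DKO input 26 and 43. With J2 it had 881 and 963 counts in the control animals against 4271 and 1555 in the DKO animals. With K1 the counts were 841 and 711 in the controls against 2882 and 2596 in DKO. The DKO pulldowns held more counts of mt-Rnr1 than any control pulldown although they were the shallower libraries. Of all 16582 genes, 4.94% had both DKO counts above both control counts in J2, and 3.53% in K1.

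mt-Rnr2 had 97 and 197 counts in control input and 57 and 88 in DKO input. With J2 its counts were 9278 and 11628 in the control animals against 62730 and 18221 in the DKO animals. With K1 they were 8252 and 7365 in the controls against 32413 and 27208 in DKO. Control and DKO counts of mt-Rnr2 did not overlap with either antibody either, and the first DKO J2 library held the highest count of both members.

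After TMM scaling, mt-Rnr1 reached 69.1 ± 12.3 CPM in control J2 (SD, n = 2) against 783 ± 430 in DKO J2, and 52.4 ± 0.793 in control K1 against 929 ± 347 in DKO K1. In input it stood at 6.27 ± 4.26 CPM in control and 2.66 ± 0.701 in DKO. mt-Rnr2 stood at 788 ± 215 CPM in control J2 (SD, n = 2) against 10794 ± 7322 in DKO J2, at 528 ± 28.2 in control K1 against 9996 ± 3262 in DKO K1, and at 10.9 ± 4.58 in control input and 5.60 ± 1.21 in DKO input. The replicate spread of mt-Rnr2 was widest in DKO J2. On this scale the DKO values of both members exceeded all control values of the same antibody, as was so for 29.3% of all genes in J2 and 24.6% in K1. Among 16582 genes ordered by CPM within a library, mt-Rnr2 ranked 6 and 8 in DKO J2 and 12 and 8 in DKO K1. Its rank was 246 and 154 in control J2, and 304 and 280 in control K1. mt-Rnr1 ranked 2721 to 3747.5 in control pulldowns and 52 to 216 in DKO pulldowns. The libraries were depleted of ribosomal RNA, and whether the depletion covered the mitochondrial ribosomal RNAs is not given in the sources used here, so input levels are levels after that step. In these tissue samples, fewer cells of a type and less RNA per cell cannot be told apart.

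**Figure D1:**
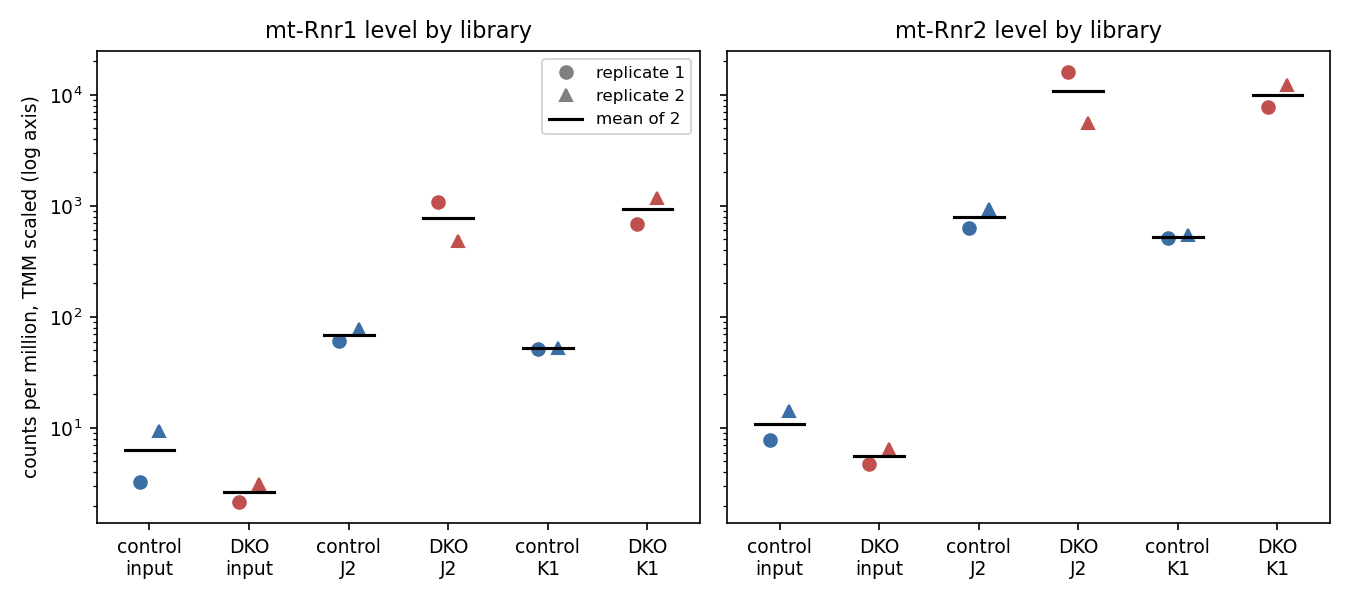
Level of mt-Rnr1 and mt-Rnr2 in each of the 12 libraries, in TMM-scaled CPM on a log axis, by kind of library and genotype, with 1 point per library. mt-Rnr2 lies from 4.75 to 14.2 in input, from 508 to 940 in control pulldowns and from 5617 to 15971 in DKO pulldowns.

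Recovery with J2 was first taken within each animal, as the log2 CPM of the pulldown minus that of its input. For mt-Rnr1 this was 4.13 and 3.04 in the control animals against 8.85 and 7.16 in the DKO animals. For mt-Rnr2 the control animals gave 6.33 and 6.03 and the DKO animals 11.66 and 9.72. With K1, mt-Rnr1 gave 3.91 and 2.49 in the control animals against 8.18 and 8.45 in DKO, and mt-Rnr2 gave 6.01 and 5.25 against 10.60 and 10.85. Both members were recovered above input in all 4 animals with both antibodies, and both DKO animals lay above both control animals. The same order of the animals was found for 27.5% of all 16582 genes with J2 and 20.9% with K1.

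The edgeR fits gave a J2 log2 fold change over input of 3.46 (SE 0.61) for mt-Rnr1 and 6.17 (SE 0.87) for mt-Rnr2 in control, and of 8.22 (SE 0.75) and 10.93 (SE 1.06) in DKO. With K1 the values were 2.97 (SE 0.46) and 5.51 (SE 0.50) in control, and 8.36 (SE 0.58) and 10.72 (SE 0.62) in DKO. mt-Rnr2 had the largest log2 fold change of all genes fitted in DKO with either antibody, and mt-Rnr1 ranked 5 of 15923 with J2 and 3 of 15908 with K1. In control, mt-Rnr2 ranked 4 with either antibody, and mt-Rnr1 ranked 63 with J2 and 78 with K1. Without the first control animal the control ranks were 11 (J2) and 31 (K1) for mt-Rnr2 and 226 and 335 for mt-Rnr1. Without the second, mt-Rnr2 ranked 6 and 12. In DKO, without the first DKO animal, mt-Rnr2 ranked 2 with J2 and mt-Rnr1 20 with J2 and 5 with K1, and without the second mt-Rnr1 ranked 9 with K1. With no filter, mt-Rnr1 ranked 201 and 340 in control and mt-Rnr2 7 with K1. The difference of recovery between the genotypes, DKO minus control, was 4.76 (SE 0.83) for mt-Rnr1 and 4.76 (SE 1.04) for mt-Rnr2 with J2, and 5.38 (SE 0.66) and 5.21 (SE 0.63) with K1. With all libraries thinned to the smallest total in the fit it was 4.58 and 4.96 with J2, and 5.47 and 5.65 with K1. mt-Rnr2 was therefore recovered above mt-Rnr1 in both genotypes, while the genotype difference was of like size for both. Within J2 alone, DKO against control was 3.53 (SE 0.61) and 3.80 (SE 1.25), and within K1 alone 4.37 (SE 0.46) and 4.46 (SE 0.64). These pulldown contrasts share the same input or pulldown libraries and are not independent of each other.

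The 13 protein-coding mitochondrial genes encode subunits of the respiratory chain and ATP synthase, and most are cut from the same heavy-strand transcript. Their J2 log2 fold change over input had a median of -0.84 in control, with 11 of 13 below input, and of 1.41 in DKO, with 11 of 13 above it, beside a median over all genes of -0.07 and 0.10. With K1 the median was -1.53 in control and 1.87 in DKO. The J2 medians were the values of mt-Co2 in control and mt-Nd3 in DKO, and both K1 medians were those of mt-Nd3. Near-identical annotated copies cover 99.6% of mt-Co2 and 99.1% of mt-Nd3, and their part in the medians was not tested. In both genotypes mt-Rnr2 lay above the highest of the 13, mt-Nd6, which is the gene of that group encoded on the light strand and reached 2.21 in control J2 and 5.30 in DKO J2. The lowest of the 13 was mt-Cytb, at -2.59 in control J2 and -2.48 in DKO J2. The difference of recovery, DKO minus control, was positive for 13 of 13 genes with both antibodies, with a median of 2.38 for J2 and 3.44 for K1, below the value of either ribosomal RNA.

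**Figure D2:**
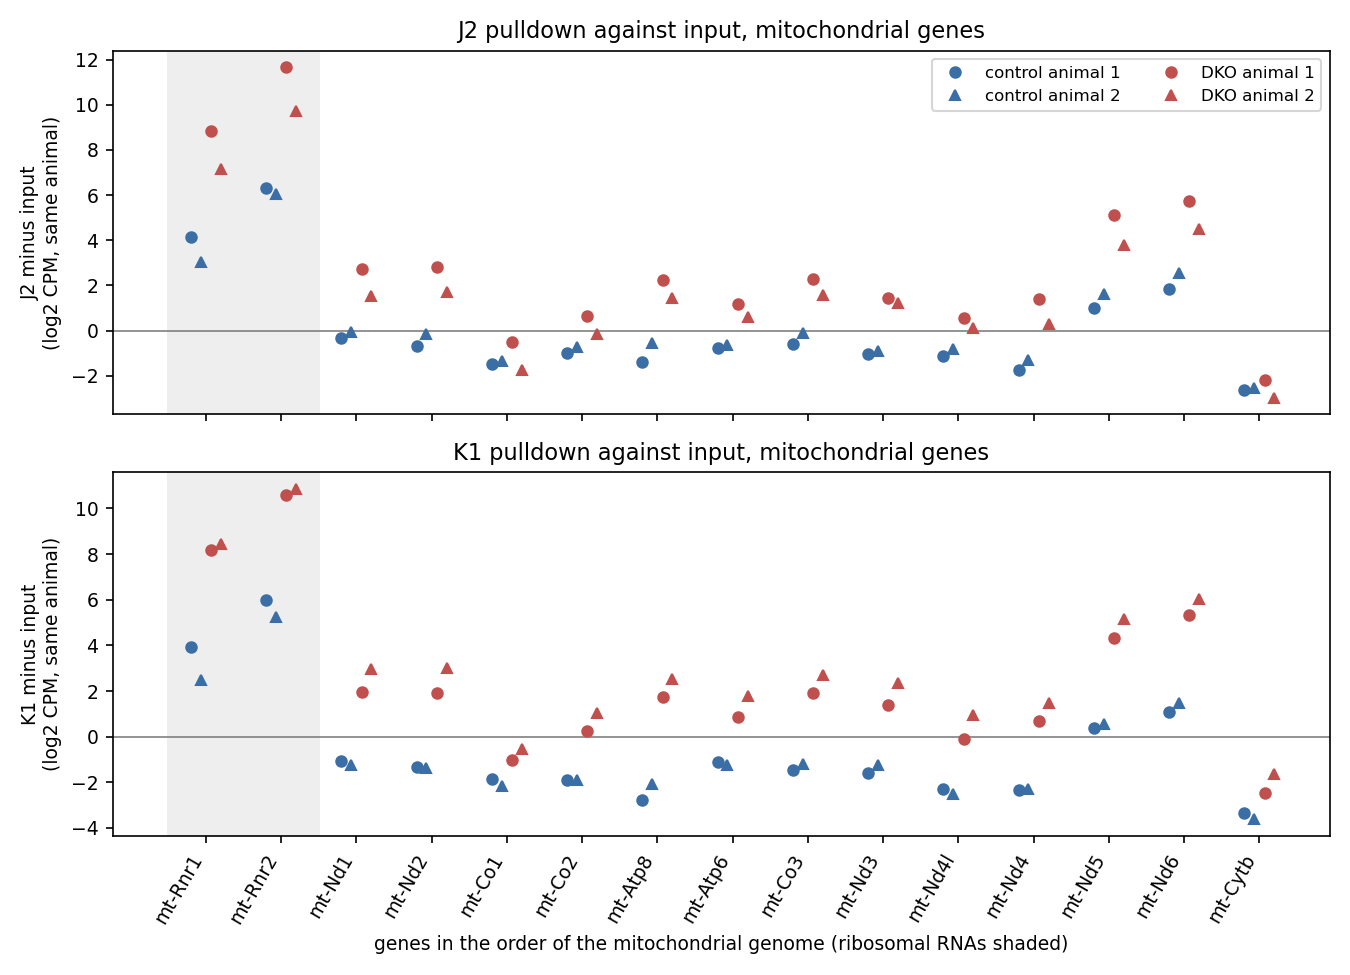
Log2 CPM of pulldown minus input of the same animal for mt-Rnr1, mt-Rnr2 and the 13 protein-coding mitochondrial genes, by antibody, with 1 point per animal. mt-Rnr2 is the highest gene in each animal, from 5.25 in the second control animal with K1 to 11.66 in the first DKO animal with J2.

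A ratio within a library needs no scaling between libraries. Each member's counts per kilobase were divided by the summed counts of the 13 protein-coding genes over their summed kilobases, on a log2 scale. For mt-Rnr1 this ratio was -9.83 and -8.30 in control input and -10.21 and -9.46 in DKO input. With J2 it was -4.96 and -4.95 in the control animals against -3.77 and -3.54 in DKO, and with K1 -4.58 and -4.47 against -3.71 and -3.63. With each antibody the DKO values exceeded the control values without overlap, and all pulldown libraries lay above all input libraries. The same order of DKO and control held for 3.78% of all genes with J2 and 2% with K1. These shares are low in part because the divisor itself, the counts of the 13 genes, took a larger share of DKO than of control pulldowns. Relative to the same sum, mt-Nd5, mt-Nd6 and mt-Atp8 also had this order with both antibodies, so it was not particular to the ribosomal RNAs.

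For mt-Rnr2 the ratio was -9.31 and -8.41 in control input and -9.80 and -9.15 in DKO input. With J2 it was -2.29 and -2.09 in the control animals against -0.62 and -0.72 in DKO, and with K1 -2.01 and -1.83 against -0.95 and -0.97. In DKO pulldowns mt-Rnr2 thus came within 1 log2 unit of the pooled density of the protein-coding genes. That is not the density of a typical one, since mt-Nd5 gave the most counts of the 13. In the first DKO J2 library it held 403636 of their 696873 counts. In DKO pulldowns the ratio of mt-Rnr1 to the 13 genes was 2.46-fold that of control with J2 and 1.81-fold with K1, and that of mt-Rnr2 was 2.86-fold and 1.95-fold. As a share of all counts on the mitochondrial chromosome, mt-Rnr2 held 0.0155% to 0.0405% in input, 2.75% and 3.16% with J2 in control against 8.21% and 7.73% in DKO, and 3.31% and 3.74% with K1 in control against 6.65% and 6.58% in DKO.

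The genotype difference of this ratio, pulldown minus input in DKO minus that in control, was 2.07 for mt-Rnr1 and 2.13 for mt-Rnr2 with J2, and 1.62 and 1.58 with K1. For mt-Rnr1 it was 2.83 (J2) and 2.34 (K1) without the first control animal, and 1.30 and 0.91 without the second. Its size depends on how the 13 genes are summarised. With their median in place of their sum, the difference was 4.26 for mt-Rnr1 and 4.32 for mt-Rnr2 with J2, and 3.67 and 3.62 with K1. With only the 6 genes that have no near-identical copy it was 1.56 and 1.63 with J2, and 1.04 and 0.99 with K1. Among the annotated transcripts, copies that match on 97% or more of 100 or more aligned bases cover at least 50% of 7 of the 13 protein-coding genes, and 0 of the 2 ribosomal RNAs. Only annotated transcripts were searched. The nearest matches of mt-Rnr2 were Gm20594, at 88.5% identity over 435 bases, and Cep295, at 78.0% over 662 bases on the opposite strand.

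**Figure D3:**
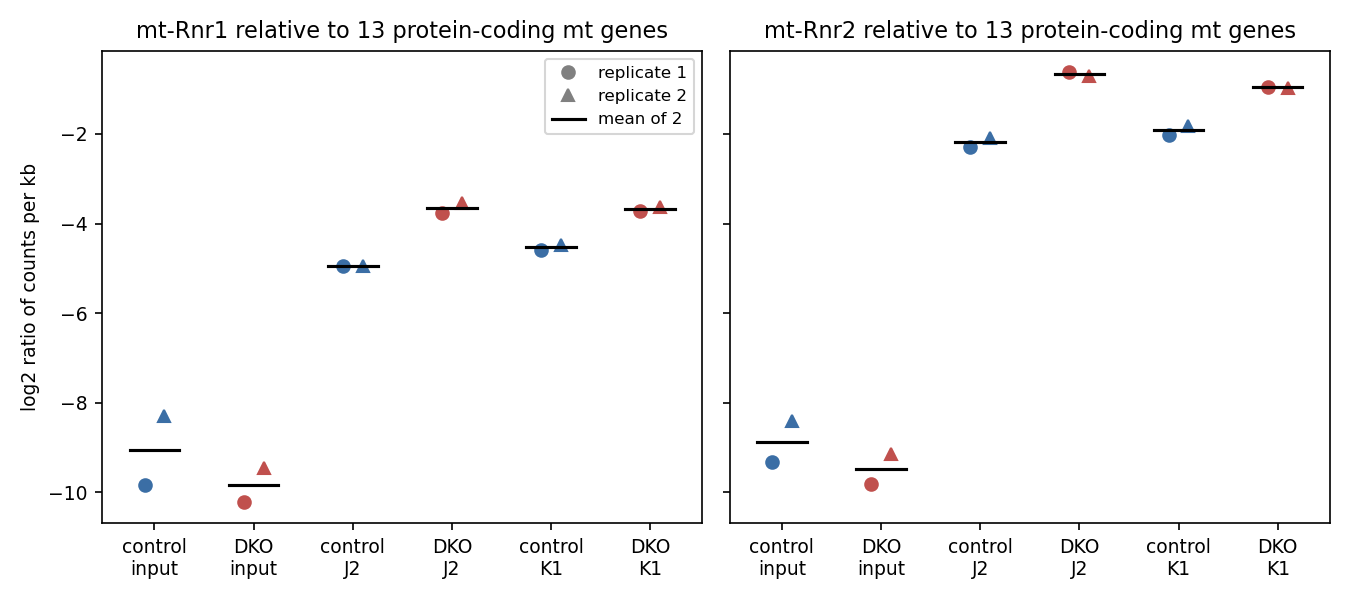
Log2 ratio of the counts per kilobase of each ribosomal RNA to those of the 13 protein-coding mitochondrial genes, with 1 point per library. Input libraries lie from -10.21 to -8.30, and DKO pulldowns from -3.77 to -3.54 for mt-Rnr1 and from -0.97 to -0.62 for mt-Rnr2.

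Unselected RNA was compared between the genotypes next. The members were not chosen on this contrast itself. Its input values did enter the recovery values by which they were chosen, so the test is not independent of that choice. Both ribosomal RNAs had lower values in DKO input, and neither passed the test. The edgeR log2 fold change was -1.20 for mt-Rnr1 (SE 0.49, adjusted p = 0.0940) and -0.92 for mt-Rnr2 (SE 0.32, adjusted p = 0.0592). Thus 0 of 2 members were called, and 2 of 2 had an unadjusted p under 0.05, where 35.9% of all genes tested (5421 of 15088) were called and 46.5% had an unadjusted p under 0.05. The counts behind these values are low: the 41 counts of mt-Rnr1 in the first control input library have an exact Poisson 95% interval of 29.4 to 55.6, and the 129 in the second one of 107.7 to 153.3, which cover counting error only. That second control library decides the size of the difference. Without it the log2 fold change was -0.25 for mt-Rnr1 and -0.42 for mt-Rnr2, and without the first control library it was -1.76 and -1.30, past the threshold. Leukocyte markers summed to 67.3 and 79.2 CPM in control input and 45.9 and 46.4 in DKO input, and Gm26917 took 3.19% and 3.72% of the gene counts in control input and 8.26% and 7.85% in DKO input. Their part in the input differences was not tested. Over all alternatives tried, the adjusted p ran from 1.32e-04 to 0.755 for mt-Rnr1 and from 5.23e-04 to 0.449 for mt-Rnr2. Relative to the 13 protein-coding genes, the log2 ratio in input was lower in DKO by -0.77 for mt-Rnr1 and -0.61 for mt-Rnr2, with overlapping libraries, given with no test.

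The protein-coding mitochondrial genes had lower values in DKO input as well, 13 of 13, with a median log2 fold change of -0.39 against -0.001 over all genes tested. Of them 3 fell by edgeR's test: mt-Cytb (-0.66, adjusted p = 0.0301), which encodes a subunit of complex III, and mt-Nd4 (-0.58, adjusted p = 0.0262) and mt-Nd6 (-0.44, adjusted p = 0.0389), which encode subunits of complex I. The remaining 10 did not pass. The 3 of 13 called stand beside 35.9% of all genes, and each of the 3 passed under 8 of 11 alternatives, failing in the fit of all 12 libraries and without either control animal.

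**Figure D4:**
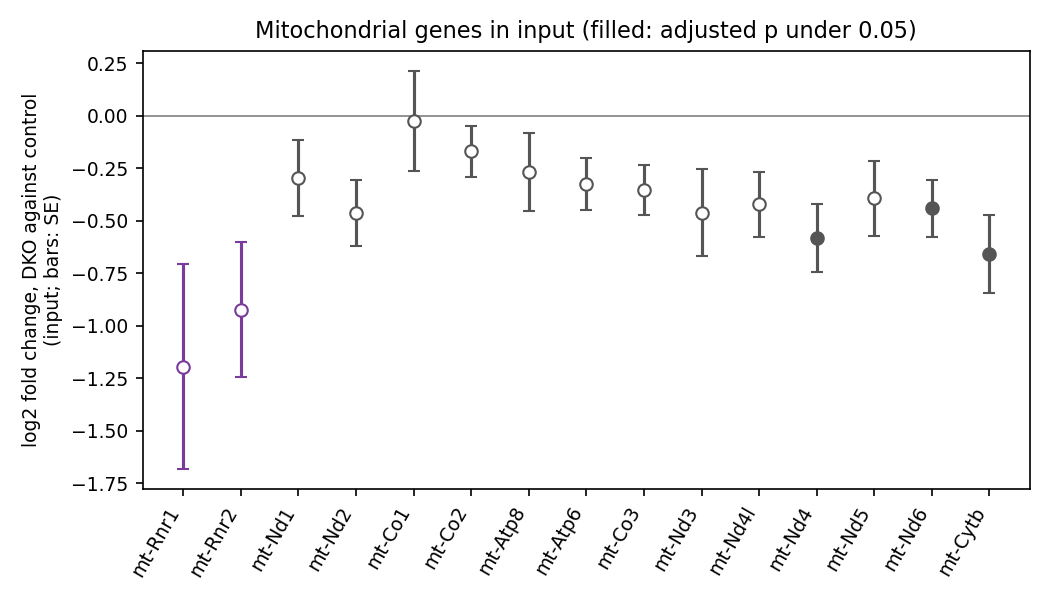
Log2 fold change of DKO against control in input for mt-Rnr1, mt-Rnr2 and the 13 protein-coding mitochondrial genes, with bars for the SE and filled points where the adjusted p was under 0.05. The ribosomal RNAs have the lowest values, -1.20 and -0.92, and wider bars than the protein-coding genes.

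Nuclear genes that act on the mitochondrial ribosomal RNAs were examined in the same input comparison. Of 27 genes for their transcription, processing, modification and assembly, 3 fell and 0 rose in DKO, with a median log2 fold change of -0.20, beside the 35.9% of all genes called (17.1% lower and 18.8% higher). Those that fell were Mrm2 (-1.07, adjusted p = 0.0482), a methyltransferase of mt-Rnr2, Gtpbp10 (-0.75, adjusted p = 0.0367), a GTPase of large-subunit assembly, and Hsd17b10 (-0.50, adjusted p = 0.0489), a subunit of mitochondrial ribonuclease P, all by edgeR. Mrm2 had too few counts for the naming rule and is named because only 3 were called. These calls lie near the threshold: of 11 alternatives, Mrm2 and Gtpbp10 passed under 6 each and Hsd17b10 under 5. With 1 animal left out Mrm2 ran from -1.31 to -0.78 and lost its call without control 2, DKO 1 or DKO 2. Gtpbp10 (-1.03 to -0.52) and Hsd17b10 (-0.70 to -0.33) lost theirs without control 1, control 2 or DKO 1. Tfb1m stood at -0.21 (adjusted p = 0.613 by edgeR).

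Of 7 genes that degrade, stabilise or sense mitochondrial RNA, 2 rose and 2 fell, a small list beside a share of 35.9% called over all genes. Ifih1, the cytosolic sensor of long double-stranded RNA, rose (log2 fold change 2.00, SE 0.23, edgeR adjusted p = 7.42e-04). Pnpt1, the exoribonuclease of the mitochondrial degradosome, rose too (1.36, SE 0.14, edgeR adjusted p = 5.09e-04). Grsf1, an RNA-binding protein of mitochondrial RNA granules, fell (-0.57, edgeR adjusted p = 0.0122), as did Lrpprc, which stabilises mitochondrial messenger RNAs (-0.57, edgeR adjusted p = 0.0429). The helicase Supv3l1 stood at -0.23, Slirp at 0.33 and Rexo2 at 0.26, and these 3 did not pass. Ifih1 and Pnpt1 passed under all 11 alternatives run, and Grsf1 and Lrpprc under 8 of them. Grsf1 lost its call without control 1 (adjusted p = 0.0505 by edgeR) or control 2 (0.113). Lrpprc ran from -0.88 to -0.32 with 1 animal left out, and lost its call without control 1 or DKO 1.

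The antibodies were compared directly in the 8 pulldown libraries, in a fit with no term for the animal unless stated. In control, K1 against J2 gave a log2 difference of -0.44 for mt-Rnr1 (SE 0.51, edgeR adjusted p = 0.749) and -0.61 for mt-Rnr2 (SE 0.76, adjusted p = 0.766). In this comparison 0 of 2 members were called, and edgeR called 0% of the 14285 genes tested, with 1807 at an unadjusted p under 0.05 and 264 called by DESeq2. With the animal as a block edgeR called 3959 genes, and neither member (adjusted p = 0.435 for mt-Rnr1 and 0.434 for mt-Rnr2).

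In DKO, K1 against J2 gave 0.25 for mt-Rnr1 (SE 0.50) and -0.10 for mt-Rnr2 (SE 0.76), with an edgeR adjusted p of 1.000 for both. Again 0 of 2 members and 0% of the genes were called by edgeR, with 529 genes at an unadjusted p under 0.05, 3 called by DESeq2 and 8 with the animal as a block. The DKO animals differed in sign: K1 minus J2 was -0.67 for mt-Rnr1 and -1.05 for mt-Rnr2 in the first, and 1.29 and 1.13 in the second. Without the first DKO animal the value for mt-Rnr1 was 1.30 and that for mt-Rnr2 was 1.14. Without the second they were -0.67 and -1.06.

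The antibody difference in DKO minus that in control was 0.69 (SE 0.71) for mt-Rnr1 and 0.51 (SE 1.08) for mt-Rnr2, with an edgeR adjusted p of 1.000 for both. By edgeR 0 of 2 members and 0% of the genes were called, with 507 at an unadjusted p under 0.05, 1 called by DESeq2 and 1 with the animal as a block. These values also depend on which DKO animal is kept: without the first they were 1.71 and 1.73, and without the second they were -0.25 and -0.46. With a lone DKO library per antibody, such fits hold no spread between DKO animals.

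The members also differed from each other by kind of library. The counts of mt-Rnr2 divided by those of mt-Rnr1 were 2.37 and 1.53 in control input and 2.19 and 2.05 in DKO input. With J2 the ratio was 10.5 and 12.1 in the control animals against 14.7 and 11.7 in DKO. With K1 it was 9.81 and 10.4 against 11.2 and 10.5. Per kilobase this is a ratio of 0.92 to 1.43 in input and 5.92 to 8.87 in pulldowns, so the members had like levels per length in input, and mt-Rnr2 was higher in every pulldown. Between the genotypes the log2 ratio of counts differed by 0.16 in input (exact two-sided permutation p = 1), 0.22 in J2 (exact p = 0.667) and 0.11 in K1 (exact p = 0.333, the smallest that 2 against 2 libraries allow). The K1 libraries of the genotypes did not overlap, and those of input and J2 did.

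**Figure D5:**
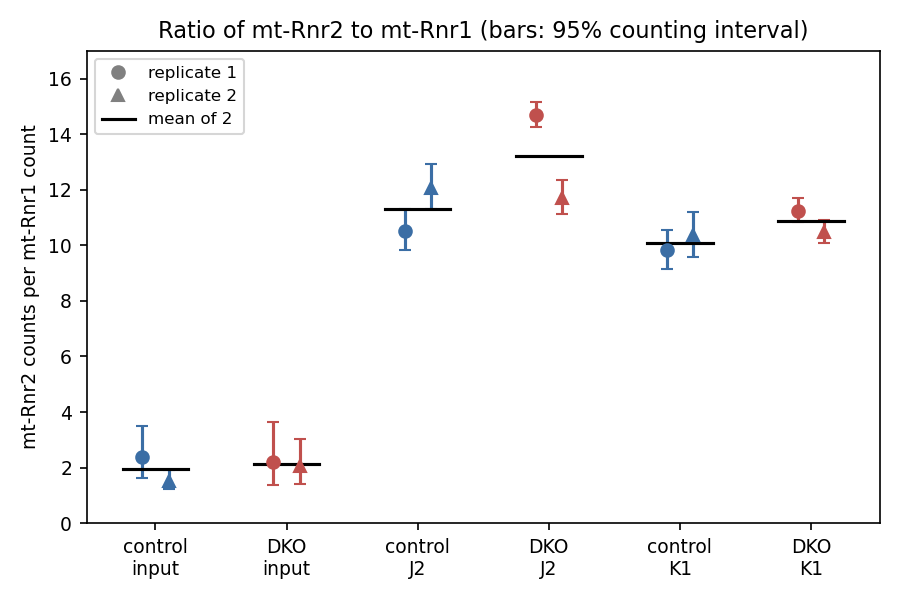
Counts of mt-Rnr2 divided by counts of mt-Rnr1 in each library, by kind of library and genotype. The 4 input libraries lie from 1.53 to 2.37 and the 8 pulldown libraries from 9.81 to 14.7.

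The transfer RNA genes of the same genome were almost without counts. Of 22, 20 had 0 counts in all 12 libraries, among them mt-Tf and mt-Tv, which flank mt-Rnr1. mt-Tl1, which follows mt-Rnr2, had 1 count in all. mt-Tp, a light-strand gene that lies across the control region from mt-Tf on the circular genome, had 1006 to 1148 counts in input and 113 to 329 in pulldowns. In TMM-scaled CPM it stood at 75.1 to 95.6 in input, 8.41 to 17.5 in control pulldowns and 46.5 to 99.5 in DKO pulldowns.

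The genes whose log2 CPM was most like that of the members over the 12 libraries were found among 9741 other genes with a mean of at least 50 counts. These correlations are a description over libraries that share animals and depth. Each member was the nearest gene of the other (Pearson's r = 0.990, Spearman's rho = 0.993). For mt-Rnr1 the next were Gm11408 (r = 0.984), Gm28439 (r = 0.979), Gm11407 (r = 0.978) and mt-Nd6 (r = 0.976). The 3 Gm genes resemble mt-Nd6, mt-Nd4 and mt-Nd5, at 93.6% identity over 519 bases, 100% over 876 and 92.3% over 1058. For mt-Rnr2 the next were Spata5l1 (r = 0.985), Gm4076 (r = 0.981), which resembles mt-Nd5 at 95.2% over 954 bases, Inafm2 (r = 0.976) and Cdk13 (r = 0.974, rho = 0.895). In raw counts each of these, unlike mt-Rnr2, was lower in the shallower DKO pulldowns than in the control pulldowns. Cdk13 had 2380 and 2036 counts in control J2 against 1059 and 635 in DKO J2. After TMM scaling, on which the likeness rests, each was higher in the DKO pulldowns than in the control pulldowns of the same antibody. A high r does not measure the size of a change.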

How the data were processed

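Per the labels, RNA of each animal's epithelium was sequenced as input and after pulldown with J2 or K1, from libraries that carried molecular identifiers, were depleted of ribosomal RNA and used random hexamers. The authors' deposited files give read counts for each gene as whole numbers, counted without strand, so RNA of the 2 strands at a locus was counted together. The submitters' processing notes name STAR 2.7.10b, UMI-tools 1.1.4, HTSeq 2.0.2 and the build GRCm38.p4. Rows that name no gene entered neither the library sizes nor the tests. Of the listed reads, those outside genes were 6.76% to 27.0%, ambiguous reads 3.65% to 6.11% and reads aligned to several places 5.54% to 46.7%.

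The identifiers of 48144 rows matched GENCODE M21 without their version, and both members matched with it. Counts were analysed in R 4.3.3 by the quasi-likelihood test of edgeR 4.0.16, after TMM scaling and filterByExpr (minimum count 10), and a gene was called at a Benjamini-Hochberg adjusted p under 0.05 over all genes tested. Input was fitted on its 4 libraries, each antibody against input on 8, and K1 against J2 on the 8 pulldowns. The SE is the log2 fold change divided by the root of F. The log2 CPM used a prior count of 2. Sequences came from the GENCODE M21 transcripts, folded with RNAfold 2.7.2 at 37 degrees C and searched with blastn 2.17.0+. Only the main edgeR fit was tried on simulated counts, for DKO against control in input and K1 against J2 in control. The simulated libraries were independent, so libraries that share an animal were not covered. The members and the gene lists were chosen with earlier results of these data known. Genes named are the members, the extremes and called genes of the fixed lists (mean of at least 50 counts, with the exception given), and the 5 genes most like each member.

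Libraries of 1 animal share the code in their description, and their deviations from the group mean correlated across genes by 0.373 to 0.719. They were taken as paired in the same-animal differences and in the replicate block of fits across kinds of library. The main edgeR fits held no term for the animal, so their SEs and p-values treat libraries of 1 animal as independent. The alternatives were no TMM, scaling without mitochondrial genes, DESeq2 1.42.0, no filter, 1 fit of all 12 libraries, a replicate block, thinning to the smallest library, and leaving out each animal in turn. Replicates differed beyond sampling noise (chi-square per degree of freedom of 6.98 to 52.8). Intervals cover counting error only.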

Additional observations from a re-analysis of the deposited data

Results flagged for a closer look

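The 13 protein-coding mitochondrial genes had median values on opposite sides of input in the 2 genotypes. The median of their J2 minus input log2 CPM was -0.98 and -0.63 in the control animals against 1.47 and 1.23 in the DKO animals, a DKO mean of 1.35. With K1 the control animals gave -1.60 and -1.36 and the DKO animals 1.405 and 2.35, a DKO mean of 1.88. This difference was not tested, and most of these medians fell on genes with a near-identical annotated copy.

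Reads aligned to several places, which enter no gene count, made up a mean of 22.7% of the listed reads in DKO J2 and 36.3% in DKO K1, above 5.76% in control J2 and 6.29% in control K1.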

How the results depend on the processing

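The members kept their direction under all 11 alternatives in input, in pulldown against input, in its genotype difference and in DKO against control within a pulldown. Input counts of 26 to 197 limit every value taken against input. Without TMM the median of all genes in input was -0.13 and the calls were 2138 higher of 5074, against 2841 of 5421.

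Genes called in input numbered 1675 in the fit of all 12 libraries and 3615 to 6227 with 1 animal left out. For K1 against J2, genes called numbered 264 (DESeq2), 66 (no filter) and 3959 (replicate block) in control, 3, 8 and 8 in DKO, and 1 by DESeq2 and 1 with the replicate block for the difference. With 1 animal left out they ran from 0 to 5033 in control, 0 to 202 in DKO and 0 to 1228 for the difference. Leaving out an animal leaves a lone library in an arm, assumed to vary like the others.

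In input the members passed the threshold with no filter (-1.21 and -0.93 for mt-Rnr1 and mt-Rnr2) and with the replicate block (-1.11 and -0.89), where the numbers pair no animals across genotypes (correlations of 0.04 in input, -0.15 in J2 and -0.15 in K1). With 1 animal left out they ran from -1.76 to -0.25 and from -1.30 to -0.42. No TMM gave 5.79 for mt-Rnr2 in J2 against input in control, and 8.09 and 10.45 for the members in K1 against input in DKO. Thinning gave 11.14 for mt-Rnr2 there and 5.65 for its K1 genotype difference. mt-Rnr2 in K1 against J2 in DKO turned to 0.044 without TMM and 0.035 with the replicate block. The block changed no other call of a member.

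With 1 animal left out, DKO against control in J2 ran from 2.87 to 4.04 for mt-Rnr1 and 2.91 to 4.40 for mt-Rnr2, and in K1 from 3.87 to 4.74 and 4.02 to 4.79. J2 against input in control ran from 3.08 to 4.23 and 6.04 to 6.39, and the J2 genotype difference of mt-Rnr2 from 3.61 to 5.57. The K1 genotype difference ran from 4.40 to 5.91 and 4.71 to 5.51. K1 against J2 in DKO ran from -0.67 to 1.30 and -1.06 to 1.14, and its difference from control from -0.25 to 1.71 and -0.46 to 1.73. mt-Co1 in input ran from -0.17 to 0.11, and the median of the 13 genes in K1 against J2 in DKO from -0.50 to 1.21.

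Relative to the median of the 13 genes, mt-Rnr1 gave 8.57 (J2) and 8.36 (K1) against input in DKO, with genotype differences of 4.26 and 3.67, and mt-Rnr2 gave 11.20 and 10.72, with 4.32 and 3.62. Relative to the genes without a near-identical copy, DKO values were 5.08 and 5.07 for mt-Rnr1 and 7.71 and 7.42 for mt-Rnr2, whose control values were 6.09 and 6.43 and whose K1 genotype difference was 0.99.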
